A study of Mus musculus with 9 samples.

Results

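Myelocyte-stage neutrophil precursors of mouse bone marrow were picked cell by cell from Drop-seq count tables, in which a bead barcode tags the RNA of each cell. A cell was a member where S100a8 and S100a9 together made up at least 2% of its counts and where the counts of Fcnb and Chi3l3 were at least as high as those of Retnlg, Mmp8, Mmp9 and Cxcr2. This gave 202 members among 880 kept cells of 900 barcodes. Barcodes with more than 25% mitochondrial counts (1 barcode) and 19 barcodes of Pot1a wt/wt 3 that were also present in Pot1a wt/wt 2 had been dropped; these libraries were the only pair of 36 to share barcodes, and 3 members lay among the shared barcodes and were counted in Pot1a wt/wt 2.

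The cells came from unselected marrow of C57BL/6 mice aged 2 to 3 weeks, with 5 libraries of NG2-cre/Pot1a wt/wt mice (controls) and 4 of NG2-cre/Pot1a fl/fl mice. All mice carried a Cre recombinase under the promoter of NG2 (gene Cspg4), a proteoglycan of mesenchymal cells, and in fl/fl mice it removes Pot1a, a protein that caps telomeres. The deletion is therefore aimed at mesenchymal cells and not at neutrophil precursors, which were compared as cells of a marrow whose stroma carries it. Libraries were not tied to mice in the labels, and the study's legend gives fewer mice per group than libraries, so p-values measure the spread between libraries, which may be technical. Libraries held between 119459 and 465277 counts, over 100 barcodes each.

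Neutrophils mature through promyelocytes, myelocytes and metamyelocytes, and build their granules in that order. Promyelocytes fill the primary granules with myeloperoxidase (Mpo) and the serine proteases Elane, Prtn3 and Ctsg. Myelocytes, the last stage able to divide, turn to the secondary granules, whose proteins include the cathelicidin Camp, the neutrophilic granule protein Ngp, lactotransferrin (Ltf) and lipocalin (Lcn2) and whose genes need the transcription factor Cebpe. Metalloproteinases of the tertiary granules (Mmp8, Mmp9) and the chemokine receptor Cxcr2 follow in later cells.

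Secondary granule transcripts were high in the same members (described further on), so the 250 bases before the starts of the leading 4 are shown, from RefSeq on GRCm38.p6, written in the direction of the gene. Capitals mark matches to the C/EBP-type motif TTGCNNAA on either strand; no matches overlapped. The windows are chr9:110419558-110419807 (plus strand), chr9:111019042-111019291 (plus strand), chr2:32387740-32387989 (minus strand) and chr9:109849457-109849706 (minus strand).
Ngp: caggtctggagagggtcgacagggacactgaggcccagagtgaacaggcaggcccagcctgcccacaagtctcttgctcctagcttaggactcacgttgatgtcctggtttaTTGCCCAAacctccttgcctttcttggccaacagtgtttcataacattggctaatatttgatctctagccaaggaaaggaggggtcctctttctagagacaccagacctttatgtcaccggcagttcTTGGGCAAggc
Ltf: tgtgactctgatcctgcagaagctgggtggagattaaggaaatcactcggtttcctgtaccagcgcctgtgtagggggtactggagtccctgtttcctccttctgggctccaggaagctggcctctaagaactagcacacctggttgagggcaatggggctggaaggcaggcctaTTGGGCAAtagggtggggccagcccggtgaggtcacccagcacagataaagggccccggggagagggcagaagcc
Lcn2: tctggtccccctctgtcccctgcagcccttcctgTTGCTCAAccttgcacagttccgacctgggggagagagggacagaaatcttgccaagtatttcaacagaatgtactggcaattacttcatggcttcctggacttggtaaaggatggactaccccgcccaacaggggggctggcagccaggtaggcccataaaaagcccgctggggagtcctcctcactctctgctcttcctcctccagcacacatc
Camp: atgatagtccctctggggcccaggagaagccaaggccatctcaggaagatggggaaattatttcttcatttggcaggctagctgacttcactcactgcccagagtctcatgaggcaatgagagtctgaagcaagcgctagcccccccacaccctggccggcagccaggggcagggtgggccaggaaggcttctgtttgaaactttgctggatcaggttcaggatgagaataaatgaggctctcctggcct
Ngp held 2 matches, beginning 138 and 11 bases before its start, Ltf held 1 at 75 bases and Lcn2 held 1 at 216 bases, whereas Camp held none. Fcnb, a gene the selection rule reads, also held 2, at 235 and 123 bases. A promoter was found for 16 of the 20 listed secondary granule genes, and 6 of these (37.5%) held the motif, as did 0 of 13 promoters of 12 primary granule genes and 9.56% of all 32851 promoters of this length. An ETS-type motif, GAGGAAGT on either strand, was in 2 of the 16 secondary (12.5%) and 4 of the 13 primary granule promoters (30.8%), against 2.44% of all. A match is a description of letters and says nothing about binding.

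Most members bore markers of the stage. The 40 members with S100a8+S100a9 under 10% had a Camp+Ngp median of only 0.377% of counts and are taken up further on. All 5 markers (Fcnb, a ficolin; Chi3l3, a chitinase-like protein; Camp, Ngp and Cebpe) were detected in 92 members, 4 in 65 and 3 in 34, leaving 9 with 2, 1 with 1 and 1 with none. Fcnb and Chi3l3 chose the members and are no evidence for the name. Of the markers not read by the rule, Cebpe set the members furthest apart by detection from B-lineage-like cells, which should lack it. It was detected in 55.0% of 202 members and in 0.457% of 219 B-lineage-like cells, at median depths of 2298.5 and 2491 counts per cell. Cells nearer in stage also held Cebpe, as given in the next paragraph. Camp was detected in 98.5% and Ngp in 95.5% of members, but also in 74.0% and 49.3% of B-lineage-like cells, so that their detection alone carries little. Their amounts differed: Camp and Ngp made up a median of 9.73% of counts in members and 0.0816% in B-lineage-like cells. Chi3l3 has a near-identical neighbour, and reads of the pair could have been split.

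Genes other than those of the rule that stood highest in members over the remaining kept cells were led by Camp (a ratio of mean shares of 16.7, with 10 CPM, counts scaled to a common total, added to each), Ngp (13.2) and Inhba, an activin subunit (13.2). Cebpe followed at 12.2, the short-chain fatty acid receptor Ffar2 at 10.4 and the peptidoglycan-binding protein Pglyrp1 at 9.82. The protease inhibitor Serpinb1a (8.80), Lcn2 (8.45), annexin Anxa1 (8.42), the acyltransferase Agpat2 (8.21) and Trem3 (8.04) came next, before Ltf (7.67), 1100001G20Rik (7.67) and the stefins Stfa1 (7.50) and BC100530 (7.21). Not all of these set the members apart from the late neutrophil gate, which had mean levels as high or higher for Ltf (5376 CPM against 5244 in members), 1100001G20Rik (6565 against 6485), Stfa1 (10710 against 9922) and BC100530 (15416 against 13253). The remaining leading genes were lower in that gate, some only slightly. Lcn2 was at 4928 CPM there against 5534 in members, Anxa1 at 2731 against 3507, and Pglyrp1 at 898 against 1289. Camp was at 25399 against 59941, Ngp at 13065 against 23121, and Cebpe at 156 against 381. Promyelocyte-like cells had a Cebpe mean of 94.1 CPM. These ratios describe the selected cells, since the remaining cells were defined by the same rule.

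Transcripts of other lineages were present in the members, those of the erythroid lineage most widely. At least 3 counts of 17 erythroid markers, globins among them, were found in 194 of 202 members. These markers summed to 0.169% to 1.95% of member counts in control libraries and 0.384% to 1.44% in fl/fl libraries. Such a level was not particular to members: the globin median was 0.407% of counts in members and 0.325% in B-lineage-like cells. Of 13 monocyte and macrophage markers, 10 were above 0 and Cx3cr1, C1qb and C1qc were at 0, and 10 members had at least 3 such counts, 7 of them with S100a8+S100a9 under 10%. Of 18 B-lineage markers all were above 0, summing to 0.0154% to 0.171% of member counts in control libraries and 0.0280% to 0.0576% in fl/fl libraries. Globins reached at least 5% of counts in 7 members. Mesenchymal markers, of which Col3a1, Pdgfra, Kitl and Bglap were at 0, summed to at most 0.0768% of member counts, in Pot1a fl/fl 3. A doublet caller (Scrublet) marked 18 members and 118 kept cells in all. It did not work in Pot1a wt/wt 1, where it marked 74 of 100 cells and 12 of 20 members.

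The members were not uniform, and formed a range along their S100a8+S100a9 share (calprotectin subunits), which ran from 2% to above 25% of counts. S100a8+S100a9 was at 2% to under 5% in 28 members, 5% to under 10% in 12, 10% to under 15% in 14, 15% to under 20% in 34, 20% to under 25% in 55 and at least 25% in 59. Along these bands the median of Camp+Ngp was 0.352%, 1.29%, 6.06%, 8.87%, 10.6% and 11.9% of counts. Ltf+Lcn2 came later: their medians were 0.0138%, 0.0555% and 0.144% in the first 3 bands, and then 0.709%, 1.50% and 1.69%. Camp+Ngp was thus already at 6.06% in the band in which Ltf+Lcn2 was still at 0.144%. The subunits of the NADPH oxidase, which makes superoxide in the phagosome, went from 0.225% in the lowest band to 0.528% in the highest.

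Primary granule transcripts took the opposite course. Mpo+Elane+Prtn3+Ctsg had medians of 1.78%, 2.02% and 0.897% in the first 3 bands, 0.0681% in the 4th, and 0 in both bands above. In the 26 promyelocyte-like cells, which have at least 1% of these 4 transcripts and under 2% of S100a8+S100a9, the median was 1.96%. Of 34 members with at least 1% of primary granule transcripts, 24 were among the 40 members below 10% of S100a8+S100a9. The Camp+Ngp median of those 40 cells was 0.377%, against 10.5% in the other 162, so that these markers do not bear out the name myelocyte for them and they belong here by the rule only. Ribosomal protein transcripts, by which cells build their translation machinery, were at 11.2% and 9.96% in the 2 lowest bands and at 2.49% and 2.04% in the 2 highest. Shares of counts are bound to each other, and the rise of S100a8+S100a9 by itself lowers every other share; how much of each fall this makes up was not tested.

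**Figure D1:**
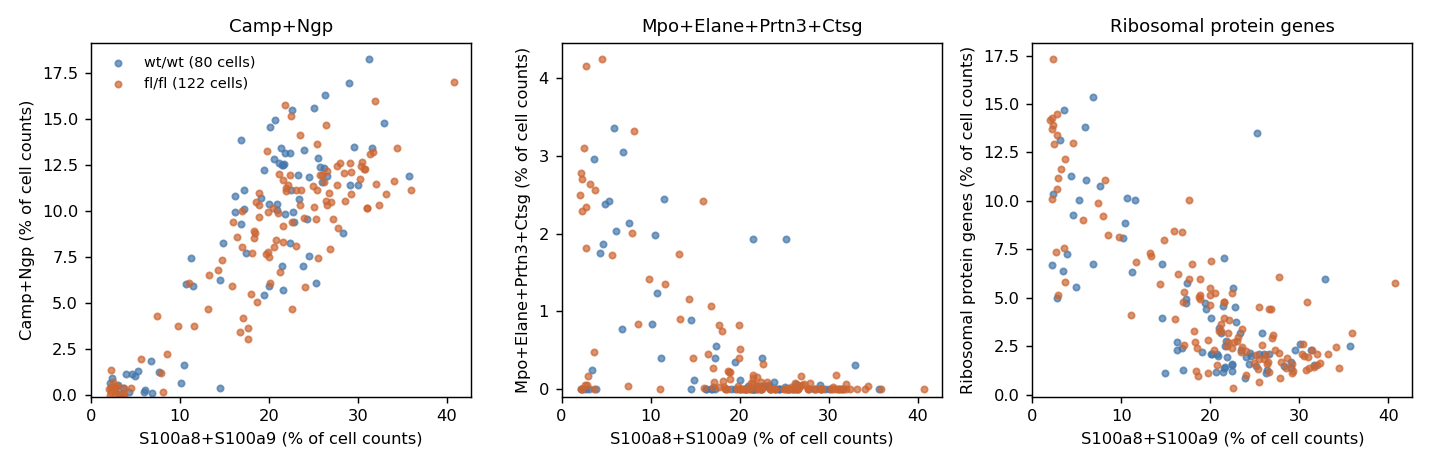
Each point is 1 of the 202 members; the x axis gives S100a8+S100a9 and the y axes Camp+Ngp, Mpo+Elane+Prtn3+Ctsg and ribosomal protein genes, all as % of the counts of the cell, with colours for the genotypes (80 wt/wt and 122 fl/fl cells). Camp+Ngp is high where S100a8+S100a9 is high, primary granule and ribosomal transcripts are high where it is low, and both genotypes cover the range.

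S phase transcripts were lowest at the top of the range, whereas G2/M transcripts stayed level. The S phase list (28 genes of DNA replication) had medians of 0.324%, 0.590%, 0.539%, 0.391%, 0.306% and 0.145% along the bands. The G2/M list (33 genes of mitosis, among them Mki67 and Top2a) stayed between 1.43% and 2.01% in every band. In the late neutrophil gate, the 71 cells above 2% of S100a8+S100a9 in which Retnlg, Mmp8, Mmp9 and Cxcr2 led, the G2/M median was 0.503% against 1.65% in members. That gate was not uniform: 31 of its cells had S100a8+S100a9 under 10%, with a median globin share of 9.16%. The G2/M median was 1.09% in promyelocyte-like cells, 2.69% in B-lineage-like cells and 2.26% in the other kept cells. Free RNA adds to these sums in every cell, and its part was not tested.

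**Figure D2:**
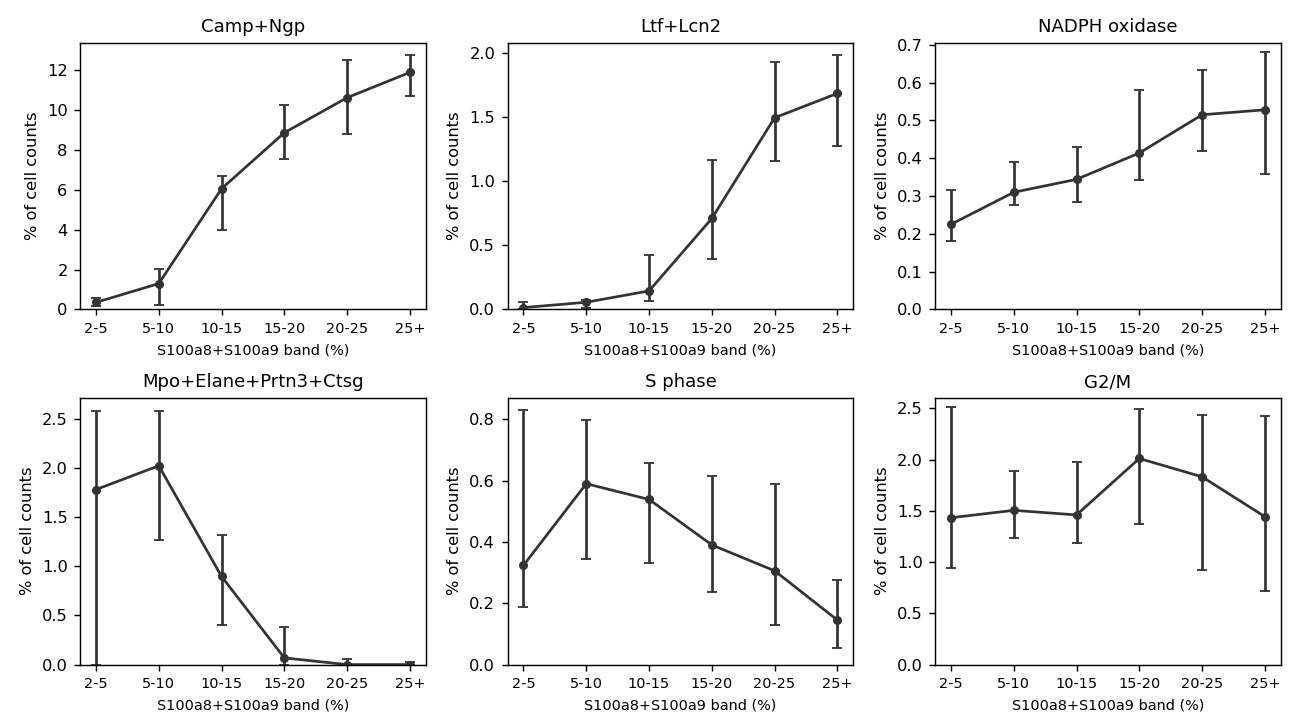
Medians of 6 transcript sums (y axes, % of the counts of a cell) over 6 bands of S100a8+S100a9 (x axis, %) among the members, with bars from the lower to the upper quartile. Camp+Ngp is at 6.06% in the 10 to 15% band, where Ltf+Lcn2 is at 0.144%, and G2/M stays between 1.43% and 2.01%.

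Most of these relations had the same direction within libraries, but their strength varied. The bands pooled the libraries, so the order of Camp+Ngp before Ltf+Lcn2 was not examined by library. Spearman's rho of S100a8+S100a9 with Camp+Ngp was 0.774 over 202 cells and lay between 0.627 and 0.895 in the 9 libraries. Camp+Ngp and Ltf+Lcn2 gave 0.678 (libraries from 0.218 to 0.911). Ltf+Lcn2 gave -0.826 with ribosomal transcripts (-0.894 to -0.570) and -0.672 with primary granule transcripts (-0.804 to -0.261). Primary granule and ribosomal transcripts gave 0.708 (0.184 to 0.876). S phase transcripts gave -0.364 with S100a8+S100a9 (negative in 8 of 9 libraries), 0.368 with primary granule and 0.407 with ribosomal transcripts (positive in all 9 for both), and -0.314 with Ltf+Lcn2 (negative in all 9). G2/M gave -0.0884 with S100a8+S100a9, negative in 5 of 9 libraries. These are descriptions across cells, which share libraries and depth. Across 996 genes detected in at least 25% of members, those most alike to Camp+Ngp were Lcn2 (rho 0.686), Ltf (0.633), the lysozyme Lyz2 (0.573), Anxa1 (0.567), 1100001G20Rik (0.566) and the interferon-inducible membrane protein Ifitm6 (0.520), followed by Cd52, Cybb (an oxidase subunit), Inhba and Pglyrp1. Among the lowest were Rps2 (-0.637), Rpl4, Rpl35, Mpo, Elane, Prtn3, Rplp2, the chaperone Hsp90ab1 and Rpl26, and all 52 ribosomal protein genes had a negative rho, beside a median of -0.112 over all 996. Lcn2 was at 511 CPM in members below 10% of S100a8+S100a9 and at 8009 CPM in those at 20% or more, and Ltf at 220 and 7829 CPM.

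Members of both genotypes covered both ends of the range, with some medians close and others apart; cells of a genotype share libraries, and these medians were not tested. In members below 10% of S100a8+S100a9, the primary granule median was 1.81% in 16 control cells and 1.91% in 24 fl/fl cells. In those at 20% or more, the Camp+Ngp median was 11.9% in 46 control cells and 11.1% in 68 fl/fl cells, and that of Ltf+Lcn2 was 1.50% and 1.63%. In the same cells the stefin median was 0.377% in control and 1.37% in fl/fl cells, that of G2/M 1.31% and 1.94%, and that of globins 0.820% and 0.417%. At the low end control cells had more S100a8+S100a9 (4.45% against 2.89%), more Camp+Ngp (0.594% against 0.352%) and more mitochondrial transcripts (2.30% against 1.22%).

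Stefins, small inhibitors of cysteine proteases encoded side by side on chromosome 16, varied widely among the members. The sum of Stfa1, Stfa2, Stfa3, Stfa2l1, BC100530 and Gm5483 had a median of 0.616% of counts, with quartiles at 0.132% and 3.67% and a highest value of 27.3%. It reached 2% in 66 of 202 members, a limit chosen after the values were seen. At 15% or more of S100a8+S100a9, 62 stefin-high members had a Camp+Ngp median of 9.94% and a Ltf+Lcn2 median of 1.27%, against 11.7% and 1.50% in 86 stefin-low members. The stefin sum itself was at 6.64% and 0.310% in these cells. That gap follows from the cut on the same sum and is no result. Spearman's correlation of stefins with Camp+Ngp was 0.179 across the members. The single genes are close copies, and reads could have been split among them, so the sum is described here, and values given elsewhere for Stfa1 or BC100530 alone are uncertain for this reason.

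The level of the stefins varied from library to library. Summed over the members of a library, they made up 3.85%, 1.15%, 0.761%, 2.88% and 3.90% of counts in the control libraries 1 to 5, and 2.59%, 2.43%, 7.32% and 2.44% in the fl/fl libraries 1 to 4. Pot1a fl/fl 3 was highest, with 17 of 29 members at 2% or more, and Pot1a wt/wt 3 lowest, with 1 of 10; the groups overlapped.

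**Figure D3:**
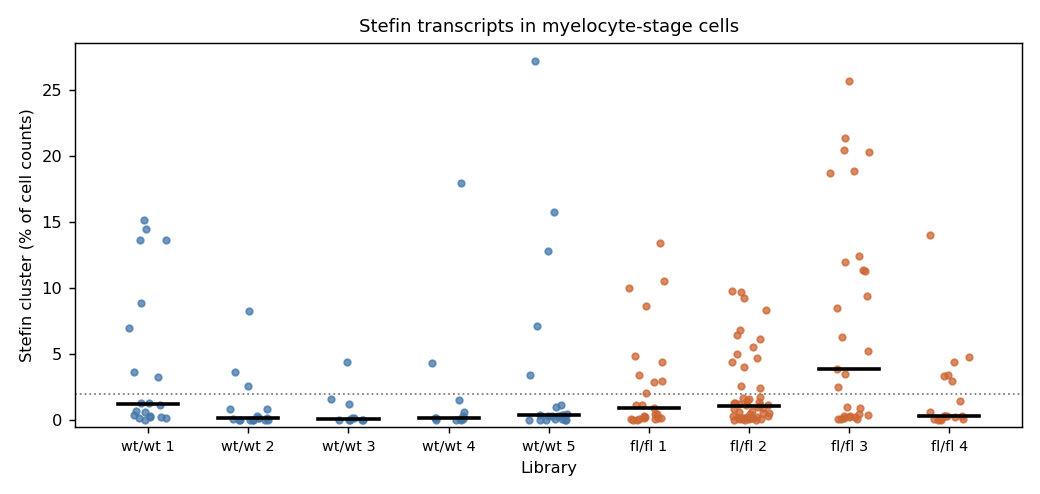
Stefin transcripts (y axis, % of the counts of a cell) in each member by library (x axis); black lines are library medians and the dotted line marks 2%. Members above 2% and members near 0 occur in every library, and Pot1a fl/fl 3 has the highest median, 3.85%.

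The share of members among the kept cells was compared between genotypes. A share also depends on the numbers of other cells, so it cannot say whether the marrow held more or fewer cells of this stage. In fl/fl mice the paper reports a lower total number of marrow cells and a smaller relative size of the B-cell lineage. Numbers of members per marrow were not measured, and the part of other cells in the shares was not tested. Members made up 20%, 17%, 12.3%, 12.1% and 21% of kept cells in control libraries 1 to 5, and 25%, 50%, 29% and 18% in fl/fl libraries 1 to 4. Pot1a fl/fl 2 stood far above all others, and Pot1a fl/fl 4 lay below Pot1a wt/wt 1 and 5, so the groups overlapped. Control libraries averaged 16.5% ± 4.16 (SD, n = 5) and fl/fl libraries 30.5% ± 13.8 (SD, n = 4), a difference of 14.0 percentage points (95% interval 1.9 to 30; two-sided exact permutation test over 126 splits, p = 0.0317, Benjamini-Hochberg adjusted over 2 share tests 0.0476). Leaving Pot1a fl/fl 2 out brought it to 7.51 points (adjusted p = 0.125, exact permutation). The call was lost when any single library other than Pot1a fl/fl 4 was left out. By sex, read from the data, the difference was 6.29 points in 3 control and 3 fl/fl female libraries and 35.3 points in 2 control and 1 fl/fl male libraries, the last being Pot1a fl/fl 2.

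As a part of the S100a8/S100a9-high cells (members and the late neutrophil gate), members made up 58.8%, 77.3%, 71.4%, 75% and 51.2% in control libraries 1 to 5, and 80.6%, 86.2%, 87.9% and 75% in fl/fl libraries 1 to 4. The means were 66.7% ± 11.2 (SD, n = 5) and 82.4% ± 5.84 (SD, n = 4), a difference of 15.7 points (95% interval 0.1 to 33.5; exact permutation p = 0.0476, adjusted 0.0476), a call lost when any single library was left out. The late neutrophil gate is an uneven denominator: 31 of its 71 cells had S100a8+S100a9 under 10%, with a median globin share of 9.16%, and 18 of these 31 lay in Pot1a wt/wt 5, one of the shallow libraries. With a limit of 10% in place of 2%, chosen after seeing the data, the difference was 9.66 points (adjusted p = 0.286, exact permutation), while that among kept cells was 11.3 points (adjusted p = 0.0317, exact permutation). Depth also moved between libraries: the median counts per member were 994 in Pot1a wt/wt 5 and 963 in Pot1a fl/fl 3, and 2172.5 to 3692 in the other 7. Thinning each cell to 500 counts gave differences of 14.7 and 17.6 points for the shares of kept and of S100a8/S100a9-high cells (adjusted p = 0.0556 for both, exact permutation). Leaving out both shallow libraries, also chosen after seeing the data, gave 15.6 and 9.99 points (adjusted p = 0.114 and 0.171, exact permutation).

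**Figure D4:**
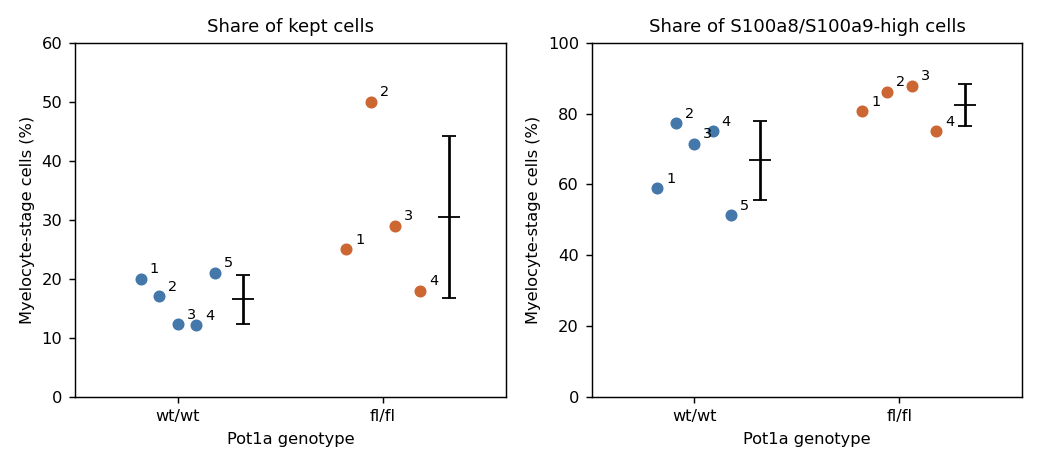
Members as a share of kept cells (left, %) and of S100a8/S100a9-high cells (right, %) in each library, with numbers for the replicates and bars for the mean ± SD. On the left Pot1a fl/fl 2 stands at 50% and the remaining fl/fl libraries between 18% and 29%, against 12.1% to 21% in controls.

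Cells at the limits of the rule could go either way. Between 2% and under 3% of S100a8+S100a9 lay 16 members, and between 1% and under 2% lay 112 kept non-members. Nearest to the limit, a member of Pot1a fl/fl 2 had 2.02% with 2 counts of Fcnb+Chi3l3 against 1 of the late genes, and a non-member of the same library had 1.91% with 5 against 0. A tie of the gene sums was found in 14 members, 6 of them with 0 counts of all 6 genes. In 34 members, the 14 ties among them, the lead of Fcnb+Chi3l3 was at most 2 counts.

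Within the members, counts were summed per library (26022 to 131717 counts) and tested between genotypes with edgeR, where fewer cells of a kind and less RNA per cell of that kind cannot be told apart. No gene passed: 0 of 611 genes were called (0%), with a lowest adjusted p of 0.994. At an unadjusted p below 0.05 there were 16 (2.62%), 8 higher and 8 lower, and DESeq2 called 0 with 90 below 0.05 among 10989 genes. In simulated counts of these 611 genes, 108 were changed 2-fold and 92 were changed 4-fold. Of these 67.6% and 100% were called, beside 8 of 411 unchanged genes. With so many genes changed, the adjustment is more lenient than where few differ, so this recovery does not carry over to the real test. In the real fit, Senp6 had a log2 fold of -1.13 and an adjusted p of 0.994 (edgeR). Differences above 2-fold, as well as smaller ones, could have been missed. Leaving low counts unfiltered gave 1 call, Ppapdc3, with 18 counts in Pot1a wt/wt 1 and 0 in all other libraries.

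Of 13 secondary granule genes tested 0 were called. Their median log2 fold lay close to 0, at 0.08 (fl/fl over wt/wt), beside -0.02 over all 611 genes. Single genes ran from -0.52 to 0.74 ± 0.30 SE, the highest being Ifitm6. That gene is named again further on, among the higher genes of lowest p. Camp was at 66705, 73042, 66636, 55466 and 39391 CPM in control libraries 1 to 5 and at 56193, 52051, 51715 and 55912 CPM in fl/fl libraries 1 to 4 (log2 fold -0.17 ± 0.21 SE). Pot1a wt/wt 5 was lowest and the fl/fl libraries fell inside the range of the controls. Ngp (0.08 ± 0.28), Ltf (-0.24 ± 0.30), Lcn2 (-0.01 ± 0.26), haptoglobin (Hp, 0.19 ± 0.27) and Anxa1 (0.25 ± 0.28) had log2 folds within 1 SE of 0, and the integrin Itgam was at -0.52 ± 0.38.

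Of 10 primary granule genes tested 0 were called (median log2 fold -0.09). Elane ran from 1307 to 5637 CPM in controls and from 1381 to 2756 CPM in fl/fl libraries (-0.49 ± 0.37 SE), with Pot1a wt/wt 5 highest. The transcription factors Cebpe (-0.27 ± 0.35) and Spi1 (0.42 ± 0.38) did not pass. Of 16 G2/M genes (median log2 fold -0.02), 4 S phase genes (0.02), 49 ribosomal protein genes (0.08), 5 oxidase subunits (0.16) and 7 stefins and cystatins (0.58), 0 were called in either direction. Stfa1 (0.58 ± 0.54) and BC100530 (0.58 ± 0.40) were uncertain and fell below 0 without Pot1a fl/fl 3 (-0.054 and -0.010).

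The genes of lowest p were, among those lower in fl/fl members, Rrbp1, a ribosome-binding protein of the endoplasmic reticulum, with 289, 455, 423, 670 and 429 CPM in controls and 280, 182, 219 and 273 CPM in fl/fl libraries (log2 fold -0.91 ± 0.29 SE; unadjusted p = 0.00603, adjusted 0.994, edgeR). All fl/fl values lay below all control values, as did the values of 1 group against the other in 4 of 611 genes (0.655%). Senp6, a SUMO protease (-1.13), the kinase Rock1 (-0.76), Fam107b (-0.78) and Zfp91 (-0.66) followed. On the other side stood the superoxide dismutase Sod1 (0.99), the kinase Csnk1a1 (0.80), Rpl36al (0.77), Ifitm6 (0.74) and Fcer1g, the Fc receptor gamma chain (0.65); all 10 had an adjusted p of 0.994 (edgeR).

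**Figure D5:**
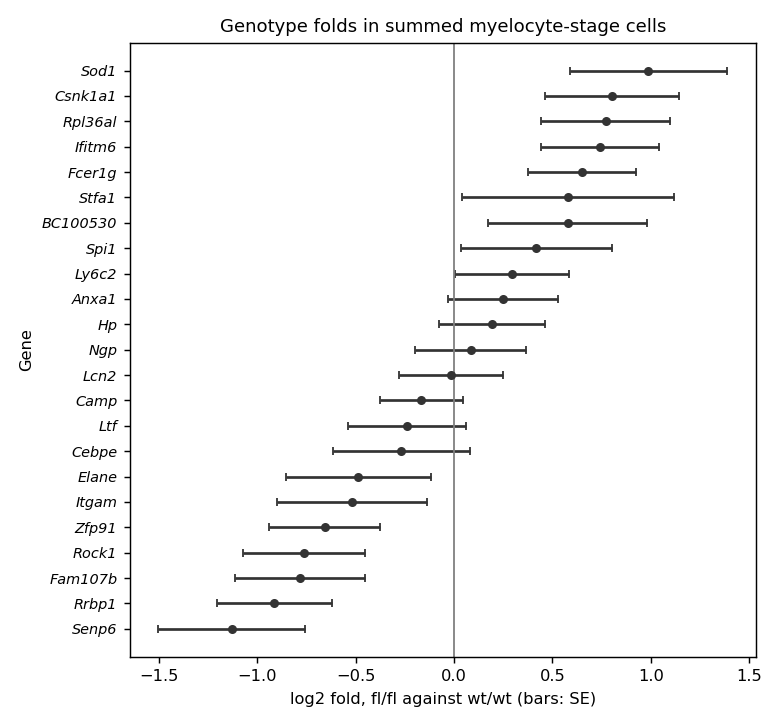
log2 fold of fl/fl over wt/wt (x axis; points with SE bars) in summed members for the genes named (y axis). The 10 genes of lowest unadjusted p lie at both ends, from -1.13 to 0.99, Camp, Ngp, Ltf and Lcn2 lie near 0, and 0 genes pass the adjusted threshold.

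Imp3, a component of the small-subunit processome, was too low for the filter. It had 4 counts in all control members and 54 in all fl/fl members, or 18.1, 0, 38.4, 0 and 65.9 CPM in control libraries 1 to 5 and 105, 220, 137 and 121 CPM in fl/fl libraries 1 to 4. The groups did not overlap. Imp3 was named because earlier whole-marrow results of these data turned on it, so the lack of overlap is no separate evidence. How many other genes below the filter also lacked overlap was not counted. In the unfiltered fit the log2 fold of Imp3 was 2.87 (adjusted p = 0.140, edgeR), and DESeq2 gave 2.74 (adjusted p = 0.9996, DESeq2). Ly6c2, a surface antigen of monocytes and young neutrophils, had a log2 fold of 0.29 ± 0.29 SE. Pot1a itself, whose deletion is aimed at other cells, had 1 count in control and 6 in fl/fl members, too few to compare. The 4 late genes of the rule summed to 0.0540% ± 0.0134 (SD, n = 5) in control and 0.0893% ± 0.0129 (SD, n = 4) in fl/fl members without overlap, a description only, because the rule reads them.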

How the data were processed

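Libraries had been sequenced on a NextSeq 500, and the authors aligned reads to mm10 and used the Drop-seq software for counting; the submitters' processing notes name STAR and mm10, without versions. The deposited values are whole-number counts per gene and barcode, 100 barcodes per library and 15265 genes in all; whether they count molecules or reads, and how the barcodes were chosen, is not stated. Members and gene lists were chosen with earlier results of these data known. Shares were compared by exact permutation over libraries. Member counts were summed per library with at least 5 members and compared by the quasi-likelihood test of edgeR 4.0.16 in R 4.3.3, after filterByExpr and TMM scaling and with Benjamini-Hochberg adjustment at 0.05, and with DESeq2 1.42.0 as an alternative, after the test had been tested on simulated data. Doublets were called with Scrublet in scanpy 1.11.5, with its components rounded so that equal points tie, and kept in. Named genes were the 5 of lowest p in each direction where none passed, the 15 leading genes by ratio, members of the lists, the markers and rule genes, Pot1a, Imp3 and Ly6c2, and the 10 highest and 10 lowest correlates of Camp+Ngp, of which 1 is not reported here. Alternatives covered the rule's limits, normalisation, filter, doublets, depth, sex and each library; the limits of 10% and 15%, sex as a term in the gene test and leaving out both shallow libraries were chosen after seeing the data. Genotypes were set by the labels. Sums over members measure counting error and the spread between libraries only. Gene names were used as the tables give them.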

Additional observations from a re-analysis of the deposited data

Results flagged for a closer look

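Of 56 groups of library values checked for a value apart from the rest of its group, 2 were picked out, where chance alone gives about 1 in 20, or 2.8. The median count per member in Pot1a wt/wt 5 was 994, below the 2172.5 to 2481.5 of the other control libraries. Cebpe was at 478 CPM in the members of Pot1a fl/fl 2, above the 273 to 306 CPM of the other fl/fl libraries.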

How the results depend on the processing

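No alternative reversed a share difference, but most ended the calls: among kept cells 5 of 22 alternatives kept it, and among S100a8/S100a9-high cells 2 of 22. In percentage points, among kept cells and among S100a8/S100a9-high cells in turn, the differences were 16.1 and 12.6 at a limit of 1%, 11.6 and 14.3 at 5%, 14.7 and 17.6 with cells thinned, 13.5 and 17.4 with Pot1a wt/wt 2 and 3 as 1 library, 11.3 and 14.3 without doublets (74 of 100 cells of Pot1a wt/wt 1 among them), 15.6 and 9.99 without both shallow libraries, and 16.0 and 16.9 within sex; Dirichlet regression gave log odds of 0.692 and 0.809. A strict majority of Fcnb+Chi3l3 gave 10.3 and the limit of 10% gave 9.66 among S100a8/S100a9-high cells. Leaving out each library gave 7.51 to 18.2 and 11.8 to 18.3 points; the first call survived only without Pot1a fl/fl 4 and the second in none. With the replicate number as a block the differences were 15.1 and 11.8 points (exact permutation p = 0.125 for the first, the smallest it can give, and 0.25 for the second; adjusted 0.25 for both). Same-numbered libraries did not deviate together (correlations -0.0802, -0.0287, -0.171 and 0.0185 over 1525 genes). These correlations showed no pairing by number but cannot exclude it. The cause of these losses was not tested.

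The gene test gave 0 calls in 21 of 22 alternatives, the block included, and 1 lower without the filter. Of 63 named genes tested, 36 changed sign in some alternative and none passed. Camp turned to 0.029 without the filter and 0.022 at 5%; Lcn2 to 0.00015 by library size only, 0.17 without the filter and 0.17 at 5%; Ly6c2 to -0.051 at 5%; Ngp to -0.20 without doublets, -0.099 without both shallow libraries and -0.053 with the block. Leaving out each library, Lcn2 ran from -0.15 to 0.18, Ngp from -0.11 to 0.25, Stfa1 from -0.054 to 0.93 and BC100530 from -0.010 to 0.83, the last 2 turning without Pot1a fl/fl 3.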
